A study of Mus musculus with 8 samples.

Results

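The matrix metalloproteinases (MMPs) Mmp2, Mmp8, Mmp9, Mmp12, Mmp13, Mmp14 and Mmp19 and the tissue inhibitors of metalloproteinases Timp1, Timp2 and Timp3 were examined in macrophages of mouse epididymal white adipose tissue (eWAT). The 10 genes were taken by symbol and all 10 were listed in the tables of both diets, which hold 17740 genes (HFD) and 16436 genes (ND). Adhesion-related macrophages (ARMs) were sorted by flow cytometry from the floating adipocyte layer after collagenase digestion and vortexing with beads, and stromal vascular fraction macrophages (SMs, labelled NARM) were sorted from the pellet of the same digestion. All mice were wild type (WT) C57BL/6J males, kept either on a chow diet (ND) or on a high-fat diet (HFD) with 60% of energy from fat for 8 weeks, begun at 6 weeks of age. Each combination of macrophage type and diet had 2 RNA-seq libraries, and a library pooled 6 mice on HFD or 10 mice on ND. ARMs are defined by how they were isolated, and both the adipocyte layer and the pellet hold other cells before the sort.

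MMPs are zinc-dependent endopeptidases that are made as inactive proenzymes and cleave collagens, elastin, fibronectin and many other proteins outside the cell. Gelatinases cut denatured collagen, collagenases cut intact fibrillar collagen, and membrane-type MMPs act at the cell surface, where they also activate other MMPs. TIMPs bind the active site of MMPs and block it, and the transcript levels measured here do not give the amount of active enzyme. In adipose tissue the balance of the 2 families is known for its part in matrix remodelling as fat cells enlarge.

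Promoter sequences of 7 of the 10 members were at hand from RefSeq on GRCm38.p6 (the mm10 assembly named in the submitters' processing notes), in 8 windows, since Mmp12 had a pair of start sites. Entries for Mmp2, Mmp9 and Mmp19 were not in the table used here. Each window was read over the 250 bases before the start, on the gene's strand. Sequences are shown for 4 of the windows of members called higher in ARMs in both diets, because they differ in the letters just before the start. Capitals mark matches on either strand to the AP-1 site TGANTCA, the TATA box TATAAA and the GC box GGGCGG, and no matches of different motifs overlapped.
Mmp13: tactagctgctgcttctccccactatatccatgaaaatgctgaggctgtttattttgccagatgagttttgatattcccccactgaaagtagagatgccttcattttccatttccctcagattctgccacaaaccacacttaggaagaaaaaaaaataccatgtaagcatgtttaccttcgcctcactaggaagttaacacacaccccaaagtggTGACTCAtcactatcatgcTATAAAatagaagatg
Mmp12, inner start: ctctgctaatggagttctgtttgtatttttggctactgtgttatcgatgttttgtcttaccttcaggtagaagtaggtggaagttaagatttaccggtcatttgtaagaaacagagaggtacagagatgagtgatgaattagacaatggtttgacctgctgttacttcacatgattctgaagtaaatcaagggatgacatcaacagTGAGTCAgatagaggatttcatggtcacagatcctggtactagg
Mmp14: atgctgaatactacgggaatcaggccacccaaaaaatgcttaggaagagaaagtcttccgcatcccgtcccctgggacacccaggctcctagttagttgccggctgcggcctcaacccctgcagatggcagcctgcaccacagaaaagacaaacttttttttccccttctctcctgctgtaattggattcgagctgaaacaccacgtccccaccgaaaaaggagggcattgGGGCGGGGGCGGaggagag
Timp3: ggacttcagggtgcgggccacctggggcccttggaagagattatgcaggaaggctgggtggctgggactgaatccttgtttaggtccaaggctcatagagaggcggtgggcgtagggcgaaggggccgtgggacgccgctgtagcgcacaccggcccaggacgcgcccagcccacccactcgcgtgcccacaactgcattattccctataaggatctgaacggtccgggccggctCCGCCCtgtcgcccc
The Mmp13 window, chr9:7272264-7272513 on the plus strand, held an AP-1 match at bases -35 to -29 and a TATA box match at -16 to -11 relative to the start. The Mmp12 window at the inner start, chr9:7347124-7347373 on the plus strand, held an AP-1 match at -44 to -38, and the window of its outer start held none of these 3 motifs. Mmp14, chr14:54431348-54431597 on the plus strand, had GC box matches at -19 to -14 and -13 to -8, and Timp3, chr10:86300162-86300411 on the plus strand, had 1 GC box match on the minus strand at -15 to -10. The GC content of the 4 windows shown was 40.4% for Mmp13, 39.6% for Mmp12, 55.2% for Mmp14 and 65.6% for Timp3. Of 32851 windows of this length from all genes, 6.75% held the AP-1 letters, 12.4% the TATA box and 32.7% the GC box. Among the members' other windows, Timp1 and Timp2 had 1 GC box match each and Mmp8 had none of the 3 motifs. The PEA3 site AGGAAG, searched as well, was in 29.5% of all windows and matched in Mmp13, Mmp14, Mmp8, Timp1, Timp3 and the outer window of Mmp12. A match describes the letters in the window and not the binding of a factor.

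The estimated counts summed to between 14508824 and 19040133 per library. The macrophage markers summed to 17856 to 22844 TPM (a level per length that sums to the same total in each library) in the 8 libraries, and none of the 10 was called between ARMs and SMs in either diet with edgeR. At an unadjusted p under 0.05, 1 of them was higher and 2 lower in ARMs on HFD, and 2 were higher on ND. Adgre1, which encodes F4/80, had 621 to 720 TPM in every library. The share of genes with estimated counts that were not whole was 32.3% to 32.9% per HFD library and 8.55% to 9.36% per ND library. The HFD and ND tables may thus differ in how they were made, and the reason was not tested. ARMs were therefore compared with SMs within each diet, and levels on HFD and ND are set side by side without a test, since diet and table cannot be told apart.

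ARMs had more RNA of 4 MMPs and of 1 inhibitor than SMs in both diets. Mmp2, Mmp12, Mmp13, Mmp14 and Timp3 were higher in ARMs by 1.54-fold to 2.34-fold in HFD mice and by 1.64-fold to 2.53-fold in ND mice. Of the 9 members tested in HFD mice, 5 were called higher and 0 lower at a fold change over 1.5 and an edgeR adjusted p under 0.05, against 4.46% of all 13337 genes tested called higher and 0.292% called lower. Among the 10 members tested in ND mice, 5 were called higher and 0 lower, against 3.55% of 12441 genes called higher and 0.129% called lower. At an unadjusted p under 0.05 the member lower in ARMs was Timp2 on HFD and none was on ND, and DESeq2 called none lower. The median log2 fold change of ARMs over SMs was 0.62 over the members tested on HFD and 0.56 over those tested on ND, and over all genes tested it was -0.0064 and -0.016. Both ARM libraries lay above both SM libraries in FPKM (fragments per kilobase and 1e6 reads) for 7 of the 9 tested members in HFD mice and for 5 of 10 in ND mice, as they did for 29.2% and 20.9% of all genes tested. They lay below for 1 member in each diet, against 21.3% and 22.4% of all genes. Mmp13 and Timp3 on HFD also passed with no filter on low counts and with limma on log2(FPKM + 0.1), where Mmp2, Mmp12 and Mmp14 did not (adjusted p = 0.0702 to 0.102 with no filter), and on ND the call in that limma fit was Mmp13.

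**Figure D1:**
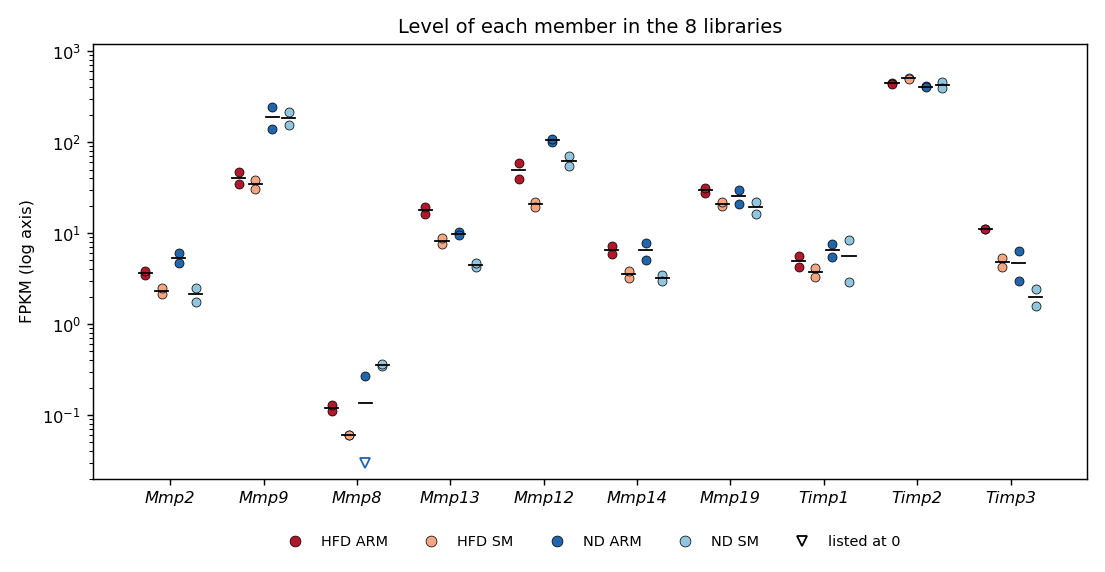
FPKM of the 10 members (log axis) in the 8 libraries, with each point a library and each bar the mean of the 2 libraries of a group. Timp2 sat highest in every group, between 396 and 510.4 FPKM, and Mmp9 in the 4 ND libraries stood above the 4 HFD libraries.

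**Figure D2:**
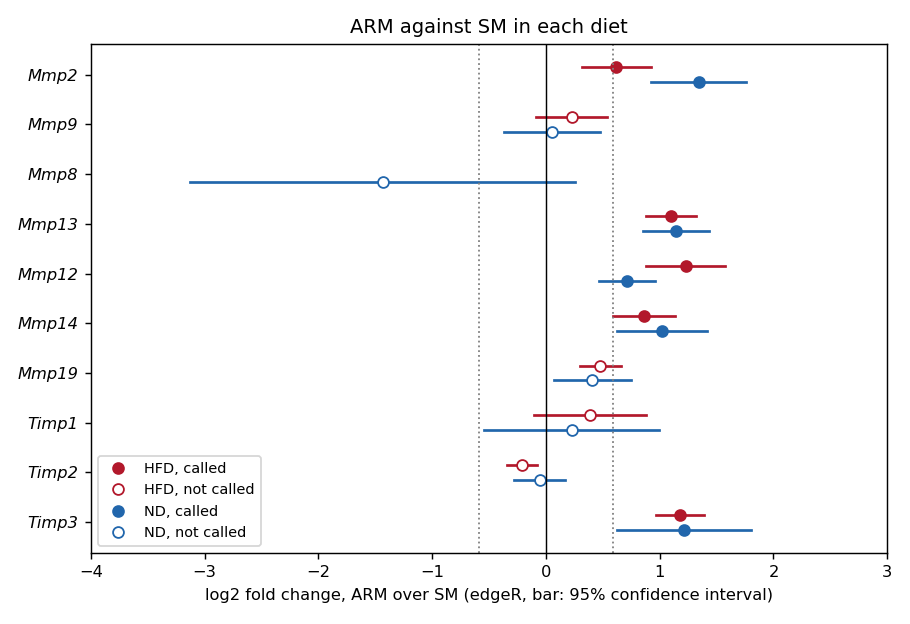
log2 fold change of ARMs over SMs for each member in HFD and ND mice, with bars for the 95% confidence interval of edgeR, filled points for called members and dotted lines at a fold change of 1.5. Mmp2, Mmp12, Mmp13, Mmp14 and Timp3 were called in both diets, and Mmp8 is drawn for ND mice only because it had too few counts in HFD mice.

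Mmp2, at chr8:92827290-92853421, encodes gelatinase A, a type IV collagen and gelatin degrading enzyme made by many mesenchymal cells. In HFD mice it had 3.46 and 3.82 FPKM in ARMs and 2.13 and 2.52 in SMs. The ND libraries held 4.74 and 6.01 FPKM in ARMs and 1.75 and 2.48 in SMs. ARMs were above SMs in both diets with no overlap. The log2 fold change was 0.62 ± 0.14 (SE, edgeR adjusted p = 0.0185) on HFD and 1.34 ± 0.20 (adjusted p = 0.000740) on ND. The HFD call sat at the edge of the rule: it was lost with DESeq2 (adjusted p = 0.128), in 1 fit of all 8 libraries (0.0630), and without the first HFD ARM library (0.104), the second HFD ARM library (0.197) or the first HFD SM library (0.0520).

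Mmp9, at chr2:164940326-164955850, encodes gelatinase B, which myeloid cells secrete and neutrophils store in granules. It had 47.2 and 34.4 FPKM in HFD ARMs and 38.0 and 30.6 in HFD SMs. On ND it had 139 and 242 FPKM in ARMs and 153 and 217 in SMs. ARM and SM libraries overlapped in both diets, and the spread within an ND group was wider than the difference between groups. The log2 fold change was 0.22 ± 0.14 (adjusted p = 0.383, edgeR) on HFD, with a 95% interval from -0.085 to 0.54, and 0.050 ± 0.20 (adjusted p = 0.948) on ND, with an interval from -0.37 to 0.47. Its sign turned when the first HFD ARM library was left out (-0.034) and when the second ND ARM library (-0.41) or the first ND SM library (-0.19) was.

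Among the collagenases, Mmp13, at chr9:7272514-7283333, encodes the main interstitial collagenase of mice. HFD ARMs had 16.4 and 19.4 FPKM against 7.59 and 8.79 in HFD SMs. In ND mice ARMs had 10.2 and 9.53 FPKM against 4.26 and 4.72 in SMs. The lowest ARM library of each diet was above the highest SM library. The fold of ARMs over SMs was 2.14 (95% interval 1.84 to 2.50, adjusted p = 0.000130) on HFD and 2.20 (1.80 to 2.69, adjusted p = 0.000212) on ND by edgeR. Leaving out any 1 library kept the log2 value between 0.99 and 1.21 on HFD and between 1.06 and 1.22 on ND.

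Mmp8, at chr9:7558429-7568486, encodes the collagenase of neutrophil granules and was at the limit of detection. On HFD it had 5 and 6 estimated counts in ARMs and 3 and 3 in SMs, and on ND 0 and 9 in ARMs and 12 and 13 in SMs. In ND mice both ARM libraries were below both SM libraries, with a log2 fold change of -1.44 ± 0.79 (adjusted p = 0.440, edgeR), and no direction was detectable at this depth. It was left out of the HFD test by the filter on low counts. Molecular identifiers are not described in the study's methods, so counts near this floor carry counting error and may carry whatever amplification added.

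Mmp12, at chr9:7344397-7360461 and near Mmp13 and Mmp8 on chromosome 9, encodes macrophage elastase, which cuts elastin. It had 38.9 and 59.7 FPKM in HFD ARMs against 21.7 and 19.6 in HFD SMs. ND ARMs had 102 and 107 FPKM against 70.5 and 55.2 in ND SMs. The groups did not overlap in either diet, and the HFD ARM libraries differed from each other by more than the HFD SM libraries did. By edgeR, ARMs exceeded SMs 2.34-fold (95% interval 1.84 to 2.98, adjusted p = 0.000956) on HFD and 1.64-fold (1.38 to 1.95, adjusted p = 0.00163) on ND. Without the second ND SM library the ND log2 value was 0.55 (adjusted p = 0.0119), below the fold needed for a call. Mmp12 shares 157 exonic bases with Mmp1b on the other strand, and Mmp1b had at most 1 count in any library.

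Mmp14, at chr14:54431598-54442456, encodes MT1-MMP, the membrane-bound enzyme that activates the Mmp2 proenzyme together with Timp2. Its level was 5.90 and 7.28 FPKM in HFD ARMs and 3.24 and 3.86 in HFD SMs. On ND it was 5.11 and 7.88 FPKM in ARMs and 3.43 and 2.99 in SMs. ARMs were above SMs in both diets, by log2 values of 0.86 ± 0.12 (edgeR adjusted p = 0.00168) and 1.02 ± 0.19 (adjusted p = 0.00396). The second ARM library was the higher of its pair in each diet, and without it the HFD value was 0.72 (adjusted p = 0.0583) and the ND value 0.67 (adjusted p = 0.0891), neither of them called.

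Mmp19, at chr10:128790910-128800827, encodes a secreted MMP that cleaves basement membrane proteins. It had 27.8 and 31.7 FPKM in HFD ARMs and 19.9 and 22.0 in HFD SMs, and 20.9 and 29.8 in ND ARMs and 16.2 and 22.2 in ND SMs. The libraries were apart on HFD and overlapped on ND. On HFD the difference passed the adjusted p (0.00491, edgeR) with a fold of 1.39, under the 1.5 needed for a call. The ND fold was 1.33 with an adjusted p of 0.214. It became a call without the first ND ARM library (log2 0.64, adjusted p = 0.0416) or without the second ND SM library (log2 0.66, adjusted p = 0.0109). Mmp19 shares 789 exonic bases with Tmem198b on the other strand, which had 818 to 905 counts on HFD and 244 to 333 on ND, and whether the counting used strand is not given in the sources used here.

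Of the inhibitors among the members, Timp3 alone was called. Timp4, which is not a member, was also called higher in HFD ARMs (4.55-fold by edgeR). Timp3, at chr10:86300412-86349505, encodes the TIMP that binds to the extracellular matrix and also inhibits ADAM and ADAMTS proteases. HFD ARMs had 11.0 and 11.1 FPKM against 5.31 and 4.28 in HFD SMs. ND ARMs had 2.98 and 6.33 FPKM against 1.59 and 2.41 in ND SMs. ARMs were above SMs in both diets, 2.26-fold (95% interval 1.95 to 2.62, edgeR adjusted p = 6.17e-05) on HFD and 2.32-fold (1.54 to 3.49, adjusted p = 0.0189) on ND. The ND value rested on few libraries: the adjusted p was 0.402 without the second ND ARM library (log2 0.56), 0.0663 without the first ND SM library (log2 0.94) and 0.490 with DESeq2. Its exons overlap Syn3 on the other strand by 1733 bases, and Syn3 had 13 to 29.5 counts per library.

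Timp1, at chrX:20870166-20874737, encodes a secreted inhibitor of most soluble MMPs and is often raised in inflamed tissue. On HFD it had 4.2 and 5.62 FPKM in ARMs and 3.27 and 4.14 in SMs, and on ND 7.68 and 5.43 in ARMs and 8.38 and 2.92 in SMs. ARMs were above SMs on HFD by little, and the ND libraries overlapped. The log2 fold change was 0.39 ± 0.22 (adjusted p = 0.335, edgeR) and 0.23 ± 0.36 (adjusted p = 0.853). The ND sign turned without the first ND ARM library (-0.041) or the second ND SM library (-0.35).

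Timp2, at chr11:118301061-118355411 on the minus strand, encodes the inhibitor that also takes part in Mmp2 activation at the cell surface. It was the most abundant member in every library, with 447 and 440.4 FPKM in HFD ARMs and 510.4 and 498 in HFD SMs. On ND it had 414 and 401 FPKM in ARMs and 453 and 396 in SMs. It was the 1 tested member below SMs in both HFD ARM libraries, by a log2 value of -0.21 ± 0.058 (adjusted p = 0.0468, edgeR), too small a fold for a call, and this adjusted p rose to between 0.0689 and 0.341 when any 1 library was left out. The ND libraries overlapped (log2 -0.057 ± 0.10, adjusted p = 0.876), and the ND sign turned to 0.037 without the first ND SM library.

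Whether the ARM against SM change differed between diets was tested as an interaction in 1 edgeR fit of all 8 libraries. No member passed an adjusted p under 0.05, against 0.165% of 13358 genes. At an unadjusted p under 0.05 there were 2 members, Mmp2 and Mmp12, against 1017 of the 13358 genes. No member passed the adjusted p with DESeq2. Mmp2 had an HFD minus ND difference in log2 fold change of -0.74 ± 0.25 (95% interval -1.28 to -0.19, adjusted p = 0.406). Mmp12 had a difference of 0.50 ± 0.22 in the other direction (0.020 to 0.97, adjusted p = 0.630). The differences of Mmp13 (-0.058, interval -0.42 to 0.30), Timp3 (-0.042, -0.83 to 0.74) and Mmp14 (-0.17, -0.72 to 0.38) were near 0 with intervals that still allow changes of that width, so they were not shown to be alike in the 2 diets.

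Levels on HFD and ND were far apart for Mmp9. Its mean FPKM on HFD was 4.67-fold below ND in ARMs and 5.39-fold below in SMs, and all 4 HFD libraries were under all 4 ND libraries. Mmp12 was 2.12-fold lower in HFD ARMs and 3.04-fold lower in HFD SMs. Mmp13 and Timp3 went the other way: Mmp13 was 1.81-fold and 1.82-fold higher on HFD in ARMs and SMs, and Timp3 2.37-fold and 2.40-fold. Timp2 was 1.09-fold and 1.19-fold higher. Mmp2 was lower on HFD in ARMs, at 0.677 of the ND level, and its SM libraries overlapped between diets. Mmp14, Mmp19 and Timp1 overlapped in both cell types. Mmp8 in SMs had 0.0600 FPKM in both HFD libraries against 0.350 and 0.360 on ND, a 5.92-fold lower mean that rests on 3 to 13 counts per library.

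Of the 9 members tested in both diets, HFD libraries were above ND libraries for 3 in ARMs and 3 in SMs, where 25.8% and 24.6% of all 12343 genes were. They were below for 3 in ARMs and 2 in SMs, where 46% and 49.5% of all genes were. The median log2 ratio of HFD over ND over all genes was -0.12 in ARMs and -0.15 in SMs, so that the values of members stand against a general shift between the tables. Relative to it, Mmp9 (-2.22 in ARMs and -2.43 in SMs) and Mmp12 (-1.08 and -1.61) were further down, and Timp3 (1.25 and 1.26) and Mmp13 (0.86 and 0.87) were up. The gene length implied by counts and FPKM was 1.17 times longer in the HFD table for Timp1 and 1.12 times for Mmp8, and 1.01 to 1.06 times for the other members.

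**Figure D3:**
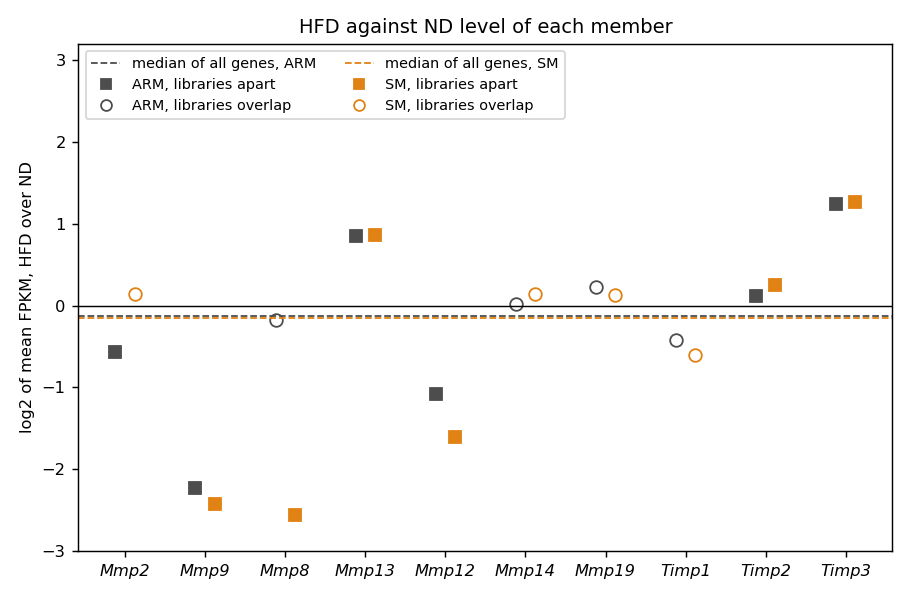
log2 of the mean FPKM on HFD over ND for each member in ARMs and SMs, with filled squares where the libraries of the 2 diets did not overlap, open circles where they did, and dashed lines at the median of all genes (-0.12 and -0.15). Mmp9 and Mmp12 lie below the lines and Mmp13 and Timp3 above, in both cell types.

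Between genes, levels are compared in TPM. Timp2 came first in every group, with 947 ± 16.7 TPM (SD, n = 2) in ARMs and 1090 ± 8.81 in SMs on HFD and 854 ± 14.6 and 870.2 ± 67.4 on ND, and it made up 53.5% to 83.7% of the members' sum. Mmp8 came last in each. In both ND groups Mmp9, Mmp12 and Mmp19 followed Timp2 in that order, each apart from the next. HFD SMs had Mmp9 at 74.0 TPM, then Mmp19 at 45.3 and Mmp12 at 44.6, of which the last pair overlapped. HFD ARMs had Mmp12 (105 TPM) and Mmp9 (87.1) next after Timp2, also overlapping. Timp1, Mmp14, Mmp2 and Timp3 overlapped with their neighbours in the order in ND ARMs, at 9.77 to 13.7 TPM.

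The 3 TIMPs summed to 834 to 1114 TPM in the 8 libraries, and 96.3% to 98.7% of that was Timp2. The 7 MMPs summed to 300 and 332 TPM in ARMs and 199 and 190.1 in SMs on HFD, and to 588 and 847 in ARMs and 506 and 632 in SMs on ND. HFD ARMs thus had more MMP transcripts than HFD SMs, and the ND groups overlapped. The TIMP sum over the MMP sum was 3.31 and 2.92 in ARMs and 5.60 and 5.79 in SMs on HFD, and 1.51 and 1.02 in ARMs and 1.86 and 1.32 in SMs on ND. On HFD the ratio was lower in ARMs than in SMs in every library. The share of Mmp9 in the MMP sum was 22.0% to 41.0% on HFD and 49.4% to 71.1% on ND.

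**Figure D4:**
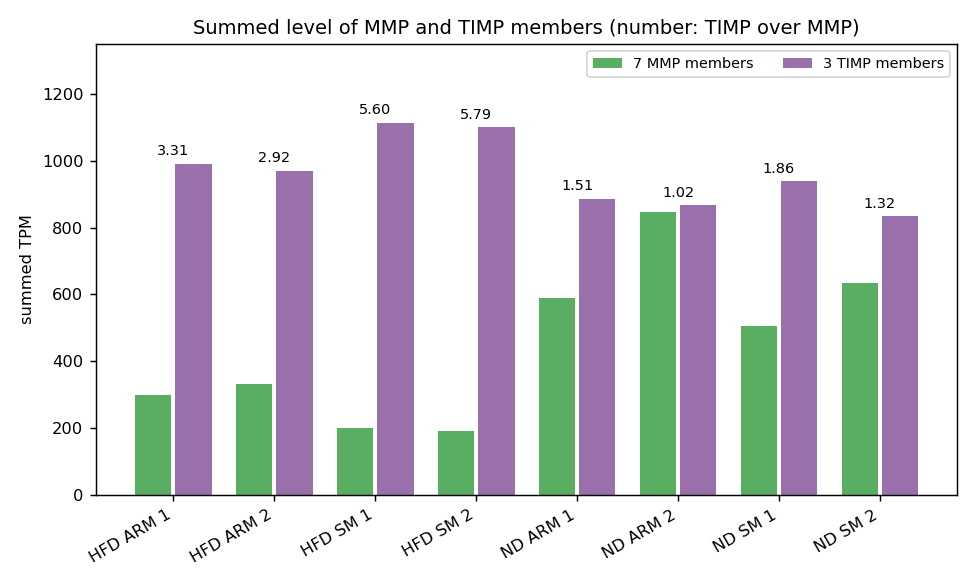
Summed TPM of the 7 MMP members (green) and the 3 TIMP members (purple) in each library, with the TIMP over MMP ratio above the bars. The ratio was 2.92 and 3.31 in HFD ARMs, 5.60 and 5.79 in HFD SMs and between 1.02 and 1.86 in the ND libraries.

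Other genes that make, activate or work beside MMPs were taken as lists. Of the rest of the MMP and TIMP family, 8 of 17 genes were tested on HFD and 2 were called higher in ARMs, Timp4 (4.55-fold, adjusted p = 0.000893), the TIMP typical of fat and heart, and Mmp15 (2.22-fold, adjusted p = 0.0285), a membrane-type MMP, by edgeR. None of the 7 tested on ND was called, and 2 were higher and 1 lower at an unadjusted p under 0.05. Mmp15 had at most 0.850 FPKM in any library. Among 14 tested regulators and activators, 3 were called higher on HFD and 4 on ND. The matricellular protein gene Thbs1 was higher by 1.96-fold on HFD and 1.84-fold on ND, the osteopontin gene Spp1 by 2.23-fold and 2.05-fold, the caveolin gene Cav1 by 3.02-fold and 2.26-fold, and Pcsk6, a proprotein convertase, by 2.55-fold on ND. The log2 medians of this list were 0.24 and 0.45. Pcsk6 had 0.36 to 1.39 FPKM in the ND libraries.

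The plasminogen system, which generates plasmin and through it activates several MMPs, had 1 of 8 tested genes called higher on HFD and 5 of 7 on ND. Serpine2, an inhibitor of thrombin and plasminogen activators, was higher in ARMs by 1.99-fold on HFD and 2.11-fold on ND. On ND the urokinase gene Plau (1.51-fold, edgeR adjusted p = 0.00668), its receptor gene Plaur (1.55-fold, 0.000831), the tissue activator gene Plat (2.72-fold, 0.00181) and the inhibitor gene Serpinb2 (1.54-fold, 0.0324) were called as well. Whether these changes differ between diets was not tested for the list. ADAMTS proteases, secreted relatives of MMPs that cut proteoglycans and procollagen, had 5 of 12 tested genes called higher on HFD and 5 of 11 on ND. Adamts1 (2.13-fold on HFD, 2.27-fold on ND), Adamts4 (2.25-fold and 4.35-fold), Adamts5 (1.82-fold and 2.36-fold) and Adamts12 (1.99-fold and 2.96-fold) were called in both diets, Adamts9 (3.89-fold) on HFD and Adamts2 (2.60-fold) on ND. No gene of these lists was called lower in ARMs in either diet.

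**Figure D5:**
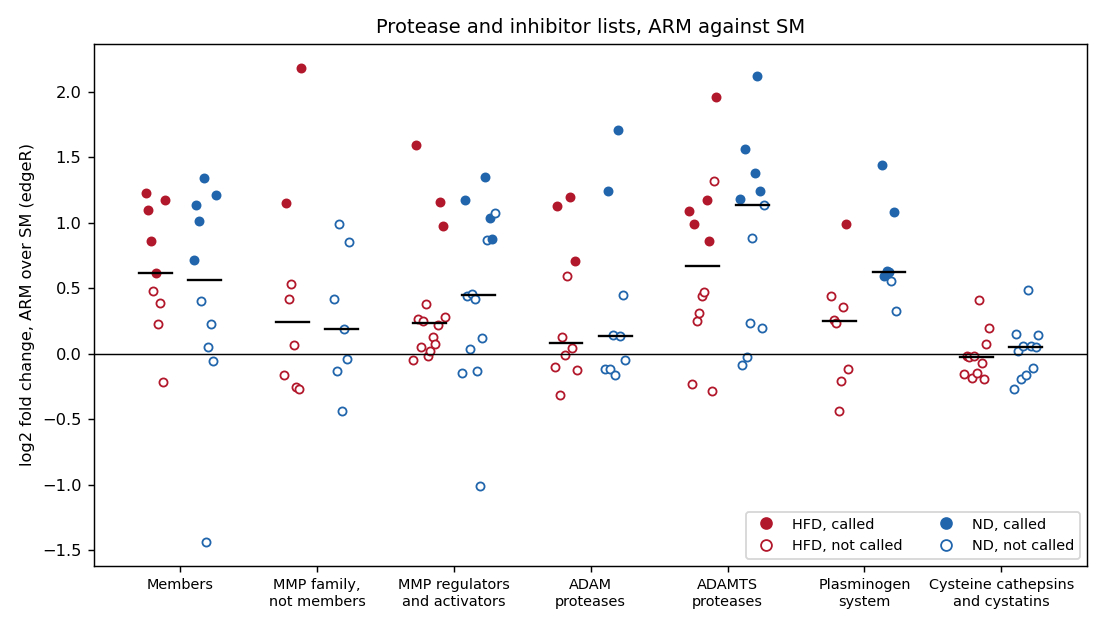
log2 fold change of ARMs over SMs for each tested gene of the members and of 6 lists of related genes, by diet, with filled points for called genes and a bar at the median of each list. The medians were 0.62 and 0.56 for the members, 0.67 and 1.13 for the ADAMTS list and -0.021 and 0.053 for the cathepsins and cystatins.

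Markers of other cell types moved with the ARM against SM comparison. Of 10 fibroblast and progenitor markers, 7 were called higher in ARMs on HFD and 8 on ND, with summed levels of 404 to 480 TPM in ARMs and 265 to 291 in SMs on HFD, and 498 to 723 in ARMs and 178 to 243 in SMs on ND. Their median log2 fold change was 0.67 on HFD and 1.43 on ND, and Pi16 was lower in HFD ARMs (log2 -0.44, edgeR adjusted p = 0.157). The HFD and ND medians were 2.48 and 1.32 for adipocyte, 1.46 and 0.78 for endothelial, and 0.86 and 1.17 for pericyte and smooth muscle markers. They were 0.17 and 1.98 for mesothelial and 0.998 and 1.80 for lymphatic markers. The called members had 0.62 and 1.34 (Mmp2), 1.23 and 0.71 (Mmp12), 1.10 and 1.14 (Mmp13), 0.86 and 1.02 (Mmp14) and 1.18 and 1.21 (Timp3). Adipocyte markers (8 and 7 of 10 called) summed to 1001 to 1127 and 304 to 382 TPM in HFD ARMs and SMs, and to 505 to 764 and 280 to 388 on ND. Endothelial markers had 9 of 10 called on HFD, with 119 to 126 TPM in ARMs and 36.4 to 51.4 in SMs. On ND 1 of 10 was called, with 30.5 to 65.4 TPM in ARMs and 23.9 to 28.4 in SMs. All 10 had a positive log2 fold change on ND, and 7 were higher at an unadjusted p under 0.05 (edgeR). Pericyte and smooth muscle markers had 3 of 9 tested called on HFD (62.0 to 68.7 against 28.6 to 43.6 TPM) and 3 of 8 on ND (20.9 to 31.6 against 15.3 to 17.6). Mesothelial markers had 0 of 9 called on HFD by edgeR (1 higher at an unadjusted p under 0.05, 30.1 to 41.4 against 19.4 to 37.0 TPM) and 7 of 9 on ND (44.1 to 56.4 against 12.2 to 16.3). Of 7 lymphatic markers, 3 were called higher in ARMs on HFD (Reln, Flt4 and Mmrn1) and 4 on ND (Ccl21a, Reln, Pdpn and Mmrn1), and none lower. Their sums, 871 to 1003 TPM in ARMs against 1339 to 1399 in SMs on HFD and 1232 to 1336 against 1312 to 1496 on ND, were mostly Lyve1, which macrophages also express, at 983 and 847 against 1389 and 1324 TPM on HFD and 1314 and 1208 against 1490.1 and 1305 on ND. No list had all of its genes at 0 in every library. The part of these cells in the higher levels of Mmp2, Mmp12, Mmp13, Mmp14 and Timp3 was not tested, and in bulk samples fewer cells of a type and less RNA per cell cannot be told apart.

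Neutrophil markers bear on Mmp8 and Mmp9. On ND 1 of 5 tested was called lower in ARMs, S100a9 (log2 -1.43, edgeR adjusted p = 0.0119). At an unadjusted p under 0.05, 3 were lower on ND (S100a9, S100a8 and Retnlg) and 1 was higher (Csf3r), and on HFD 1 of 4 tested was higher, S100a9 (log2 0.87, adjusted p = 0.0677). The list summed to 77.6 to 136 TPM in ND ARMs, 149 to 190.3 in ND SMs, 101 to 103 in HFD ARMs and 86.0 to 87.3 in HFD SMs. Csf3r made up most of the HFD sums, at 67.3 to 75.9 TPM, and had 42.2 to 67.8 on ND. S100a9 had 14.5 and 38.2 TPM in ND ARMs and 76.7 and 58.9 in ND SMs, against 7.39 to 17.2 on HFD. Cxcr2 went the other way between diets, with 4.87 to 6.57 TPM on HFD and 0.40 to 1.47 on ND. Mean Csf3r was also higher on HFD, at 73.4 against 61.6 TPM in ARMs and 68.3 against 46.5 in SMs. S100a8 had 3.74 and 19.2 TPM in ND ARMs and 31.8 and 24.1 in ND SMs, and Retnlg 3.09 and 6.67 against 9.79 and 11.96. Genes of neutrophil granules stood out in the first ND SM library, with 19.8 TPM of Ngp, 4.24 of Camp and 3.42 of Ltf, where the other 7 libraries had at most 1.03, 1.3 and 0.390. Ly6g had 0 to 0.390 TPM in the 8 libraries, and the precursor genes Elane and Mpo 0 to 0.510 and 0.0600 to 0.400. The part of neutrophil RNA in the levels of Mmp8 and Mmp9 was not tested. Markers of T, NK and B cells summed to 10.8 to 15.4 TPM. Cd4 was called higher in HFD ARMs, but the list did not move with it. Of the 5 tested on HFD, 2 had a positive log2 fold change, and the median was -0.076. On ND 0 of 4 tested were called, and the median was 0.13.

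For each called member, the 3 genes whose pattern over the 8 libraries was nearest were found among 11429 genes, by the root mean square difference of log2(TPM + 0.1) centred within each diet. They were Bcar1, Ssc5d and Aldh1a3 for Mmp2 (0.069 to 0.092), Fabp5, Nckap1 and Bcl2a1a for Mmp12 (0.094 to 0.17), Il1a, Postn and Gpr153 for Mmp13 (0.13 to 0.14), Thbs1, Pcdhgc3 and Vegfa for Mmp14 (0.079 to 0.12) and Fermt2, Lrrc32 and Sox7 for Timp3 (0.091 to 0.12). No gene was among the 3 nearest of more than 1 member. These differences are descriptions of the 8 libraries and were not tested.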

How the data were processed

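Bulk RNA-seq of sorted ARMs and SMs was examined in 8 libraries. The authors deposited a table for HFD and one for ND, which give each gene's expected count, FPKM and TPM in the 4 libraries. The submitters' processing notes name mm10, and the aligner, the counting program and the annotation are not given in the sources used here. After rounding, the counts of each diet were fitted with edgeR 4.0.16 in R 4.3.3 (TMM, filterByExpr, quasi-likelihood test, Benjamini-Hochberg over all genes). Genes past a 1.5-fold change with an adjusted p under 0.05 were called. The interaction of diet and cell type was fitted over all 8 libraries, for genes in both tables. TMM factors were 0.989 to 1.02 and the biological coefficient of variation 5.55% and 8.61%. Alternatives were DESeq2 1.42.0, other normalizations, filters and call rules, limma 3.58.1 on log2 FPKM, a replicate block and each library left out.

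The members, the lists and the tests were chosen with earlier results of these data known. The text names all members, every called gene of the protease lists, and for each called member its 3 nearest genes by pattern. Nothing says that the 2 libraries of a group came from separate preparations beyond the pooled mice, so p-values measure the spread between these libraries, and no exact test of 2 against 2 libraries can reach 0.05. The mean chi-square per gene between replicates was 4.22 to 10.1, above sampling noise. Gene positions came from RefSeq on GRCm38.p6. Figures were drawn with matplotlib 3.10.9.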

Additional observations from a re-analysis of the deposited data

Results flagged for a closer look

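The Mmp8 libraries were ordered oppositely in the 2 diets, at counts too low to give a direction in either: both HFD ARM libraries were above both HFD SM libraries and both ND ARM libraries below both ND SM libraries. The HFD minus ND difference in log2 fold change was 2.29 ± 1.27 (95% interval -0.44 to 5.02), and the edgeR interaction test did not pass (adjusted p = 0.737). All libraries had between 0 and 13 counts of Mmp8, and the difference ranged from 1.27 to 2.40 when 1 library was left out, apart from the second ND ARM library, without which the remaining ND ARM library had 0 counts and no value can be given.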

How the results depend on the processing

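The members called numbered 5 in each diet, all higher in ARMs. On HFD the count was 2 without a filter on low counts, 4 with limma on log2(FPKM + 1), 2 on log2(FPKM + 0.1) and 0 without a filter on FPKM, and on ND the 3 limma fits gave 3, 1 and 0. Leaving out 1 library, with the single library of that arm taken to vary like the other arm, gave 3 to 5 on HFD and 3 to 6 on ND. Every other alternative gave 4 or 5, and no call turned its direction under any alternative. No member was called for the difference between diets under any alternative. Over all genes, 634 were called on HFD and 458 on ND. DESeq2 called 383 and 267, the unadjusted rule 1017 and 888, the limma fits 299, 326 and 35 on HFD and 216, 55 and 0 on ND (where 1945 genes had an unadjusted p under 0.05 in the last), and no filter 181 and 627. Leaving out 1 library gave 214 to 637 and 188 to 661. For the difference, 22 genes were called, 93 with DESeq2 and 0 to 102 with 1 library left out. The cause was not tested.

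With the replicate number as a block, 786 genes were called on ND, 673 on HFD and 187 for the difference, and the same count of 5 members in each diet. Same-numbered libraries had deviations correlated at -0.028 on HFD and 0.22 on ND, over only 2 pairs, so the numbers were not taken as pairs.

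Signs turned for uncalled values only. With 1 library left out, the log2 fold change ranged from -0.034 to 0.45 for Mmp9 on HFD, and on ND from -0.41 to 0.40 for Mmp9, -0.35 to 1.17 for Timp1 and -0.15 to 0.037 for Timp2. The difference between diets ranged from -0.17 to 0.053 for Mmp13, -0.42 to 0.19 for Mmp14, -0.18 to 0.35 for Mmp19, -0.15 to 0.63 for Mmp9, -0.77 to 0.74 for Timp1 and -0.46 to 0.61 for Timp3, whose difference was 0.0065 with library totals. HFD over ND ratios kept their direction in TPM and TMM-normalized counts.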

Other observations

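Other protease families were set beside the members. Of the ADAM family, many but not all of whose members are membrane-anchored sheddases, 3 of 10 tested were called higher in ARMs on HFD and 2 of 9 on ND. Adam15 was lower in HFD ARMs (0.803-fold, edgeR adjusted p = 0.00831), too small a fold for a call. The list summed to 924 to 941 TPM in HFD ARMs and 1002 to 1028 in HFD SMs. On ND it summed to 922 to 935 TPM in ARMs and 915 to 955 in SMs. Adam8, a myeloid ADAM, had 29.7 and 34.6 FPKM in HFD ARMs against 18.4 and 20.1 in HFD SMs (1.64-fold, edgeR adjusted p = 0.000528). Adam12 was higher in both diets (2.18-fold and 2.37-fold), Adam28 on HFD (2.29-fold) and Adam23 on ND (3.26-fold), each at 1 FPKM or less in the libraries of the diet in which it was called.

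Cysteine cathepsins, the acid proteases of the lysosome, and their cystatin inhibitors had 0 of 11 tested genes called in either diet at this rule with edgeR. At an unadjusted p under 0.05, 2 were higher and 4 lower in ARMs on HFD, and 1 was higher and 1 lower on ND. Their summed level was 15935 to 17013 TPM in the 8 libraries, where the 7 MMP members summed to 190.1 to 847. The median log2 fold change of ARMs over SMs was -0.021 on HFD and 0.053 on ND.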
